A study of Mus musculus with 2 samples.

Results

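Cells carrying markers of pericytes and smooth muscle cells were examined in single-cell RNA-seq of tumor vessels, in 1 control library and 1 Dnmt1iECKO library. A cell was taken when it had at least 500 detected genes, at most 10% mitochondrial UMIs and no UMI of the leukocyte gene Ptprc. It also had to hold at least 4 of the 8 markers Myh11, Acta2, Cspg4, Pdgfrb, Postn, Trpc6, Cox4i2 and Notch3, and fewer than 4 of the 5 fibroblast genes Inmt, Mfap4, Ogn, Gsta3 and Cdo1. The rule took 355 of 18823 cells, 217 of the 9301 control cells and 138 of the 9522 Dnmt1iECKO cells. The fibroblast clause left out 40 control cells and 36 Dnmt1iECKO cells. Below the cut lay 122 control and 90 Dnmt1iECKO cells with exactly 3 markers, and just inside it lay 53 and 43 cells with exactly 4.

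Each library pooled the YUMMER1.7 melanoma tumors of 3 female mice aged 8 to 10 weeks, so each group was 1 sample and no p-value was computed. The sample labels place the tumors under the skin of the shoulder, whereas the study's text describes lung tumors seeded through the tail vein, and which of these was sampled is not settled here. Control mice were labelled C57BL/6. The study's methods instead name mice with VE-cadherin CreERT2 and ZsGreen as controls, and whether the sampled control mice carried them is not settled here. The Dnmt1iECKO mice were labelled Cdh5CreERT2;Dnmt1fl/fl;ZsGreenlsl/lsl. In them tamoxifen triggers loss of Dnmt1 in cells that use the Cdh5 promoter, that is endothelial cells (ECs). Pericytes and muscle cells are not the intended target. Live CD31+CD45- cells were sorted before capture. This gate selects ECs and passes mural cells only in part, so it can set every share of cells given here. Intervals are 95% and exact, and cover counting error only, not the spread between mice. Levels are the UMIs of a gene over all UMIs of the cells in question, scaled to counts per 1000000 (CPM), and log2 ratios compare CPM of the same gene. Control cells held 821 to 158093 UMIs (median 18364), and Dnmt1iECKO cells 966 to 188634 (median 17340). Of all cells, 29 shared a barcode sequence between the libraries, and none of the 355 did.

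Pericytes and vascular smooth muscle cells are the mural cells that wrap the endothelial tube. Pericytes sit on capillaries inside the shared basement membrane and are recruited by endothelial PDGF-B through the receptor encoded by Pdgfrb. Smooth muscle cells circle larger vessels and contract through smooth muscle myosin (Myh11) and alpha actin (Acta2), under the control of myocardin and its DNA-binding partner SRF. Notch3 on mural cells receives Jagged and Delta ligands from ECs and maintains the contractile state. Nitric oxide from ECs relaxes mural cells through soluble guanylate cyclase, cGMP and its kinase.

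SRF binds the CArG box, written here as CC, then 6 bases that are each A or T, then GG, which reads alike on both strands. It was searched from 250 bases before to 50 bases after each RefSeq gene start of GRCm38.p6, because contractile genes were higher together at the muscle end described below. Of 27 contractile genes (the list of that name with Myh11 and Acta2) 23 had a window, and 2 of them held the motif (8.70%, interval 1.07 to 28.0%), against 488 of 27025 genes in the whole table (1.81%). None of the 14 pericyte-list genes with a window held it. Among the 6 rule markers other than Myh11 and Acta2, 4 had a window and 1, Trpc6, held it. The 90 bases around each match are printed 5′ to 3′ on the gene's strand, with the motif in capitals, for Myl9 (regulatory light chain, chr2:156775263-156775352, plus strand), Myl6 (essential light chain, chr10:128493010-128493099, minus strand) and Trpc6 (a calcium-permeable channel, chr9:8543980-8544069, plus strand).
Myl9: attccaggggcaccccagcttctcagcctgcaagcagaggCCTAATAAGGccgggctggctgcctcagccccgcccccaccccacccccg
Myl6: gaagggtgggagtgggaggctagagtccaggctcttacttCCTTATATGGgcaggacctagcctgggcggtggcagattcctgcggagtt
Trpc6: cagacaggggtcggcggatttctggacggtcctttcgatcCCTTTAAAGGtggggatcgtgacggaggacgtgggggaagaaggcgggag
Myl9 and Myl6 were higher at the muscle end. Trpc6 was higher at the pericyte end, but it is a rule marker, so its place was set by how the ends were cut. Whether the motif lies near genes of both ends can thus not be read from these matches.

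The label held for part of the cells only. An endothelial list of 15 genes (Cdh5, Pecam1, Kdr and others) reached 2500 CPM or more in 126 of the 217 control cells (58.1%, interval 51.2 to 64.7%) and in 51 of the 138 Dnmt1iECKO cells (37.0%, interval 28.9 to 45.6%). A UMI of Cdh5 or Pecam1 was present in 157 control cells (72.4%) and 73 Dnmt1iECKO cells (52.9%). A Pdgfra UMI or at least 5 Dcn UMIs, which mark fibroblasts, were present in 31 and 30 cells, at least 3 of 15 tumor-cell genes in 13 and 16, and an epithelial list at 2500 CPM or more in 7 and 2. Fibroblast-marked cells were deep, at a median of 51069 UMIs per control cell and 54229 per Dnmt1iECKO cell. Scrublet scores, set to call 0.4% of cells as doublets per 1000 cells, called 7 control and 4 Dnmt1iECKO cells taken by the rule. These were 3.23% and 2.90% of the cells, near the 3.20% and 3.25% called among all cells past the quality filters. The 355 cells are therefore called mural-marker cells below.

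A narrower set was used beside them. It held cells with the endothelial list and the epithelial list each under 2500 CPM, fewer than 3 tumor-cell genes, no Pdgfra UMI and fewer than 5 Dcn UMIs. These limits were chosen after the values were seen. The set held 61 control cells and 57 Dnmt1iECKO cells, at a median of 7782 and 8972 UMIs. Scrublet called none of them, with upper limits of 5.87% and 6.27%, which lie above the share called among all cells. Summed over these cells, the endothelial list stood at 684 CPM for the control and 374 CPM for the Dnmt1iECKO library, against 6768 and 4092 CPM in all mural-marker cells. Cdh5 stood at 30.5 CPM (20 UMIs) and 1.75 CPM (1 UMI). Pecam1 ran the other way, at 27.5 CPM (18 UMIs) and 38.5 CPM (22 UMIs). Of 10 endothelial-list genes with at least 20 UMIs in the set, 8 were lower in the Dnmt1iECKO library and 2 higher. Among all 7667 such genes 3859 were lower. The epithelial genes Epcam and Krt8 and the melanocyte genes Mlana, Pmel, Tyr, Dct and Sox10 were at 0 in both libraries of the set. These melanocyte genes were also at 0 in all Dnmt1iECKO mural-marker cells. As a whole, the epithelial list still summed to 148 and 80.4 CPM and the tumor-cell list to 53.4 and 48.9 CPM. The endothelial, epithelial and tumor-cell lists set the limits, so their low levels follow from the limits and do not show purity. The fibroblast list, which holds genes of several matrix-making cells, still summed to 1436 and 2090 CPM (1925 and 2783 CPM in all mural-marker cells), and 47 of 61 and 47 of 57 cells held at least 3 of its 18 genes. The name low-background mural cells, used below, thus refers to the limits given and not to an absence of fibroblast-list genes.

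Each cell was placed between the pericyte and the muscle type by its muscle share, which is the UMIs of Myh11 and Acta2 over the UMIs of all 8 markers. A share of 0.75 or more was called the muscle end and a share of 0.25 or less the pericyte end. These are ranges on a score and not types. Between the ends of all mural-marker cells, 4.65% of 8521 genes were at least 2-fold higher at the muscle end in both libraries and 7.25% at the pericyte end. The median share was 0.0847 in the control and 0.266 in the Dnmt1iECKO mural-marker cells, and 0.306 and 0.829 in the low-background cells. Within 0.05 of either cut lay 3 of the 61 control and 3 of the 57 Dnmt1iECKO low-background cells, so few cells of that set hung on where a cut was placed. More did in all mural-marker cells. There 17 of 217 control and 14 of 138 Dnmt1iECKO cells lay within 0.05 of the 0.25 cut, and 5 and 6 within 0.05 of the 0.75 cut. The plot of the endothelial list against muscle share shows where the other-type signal lay. Endothelial-rich cells crowded at low muscle share, mostly in the control library.

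**Figure D1:**
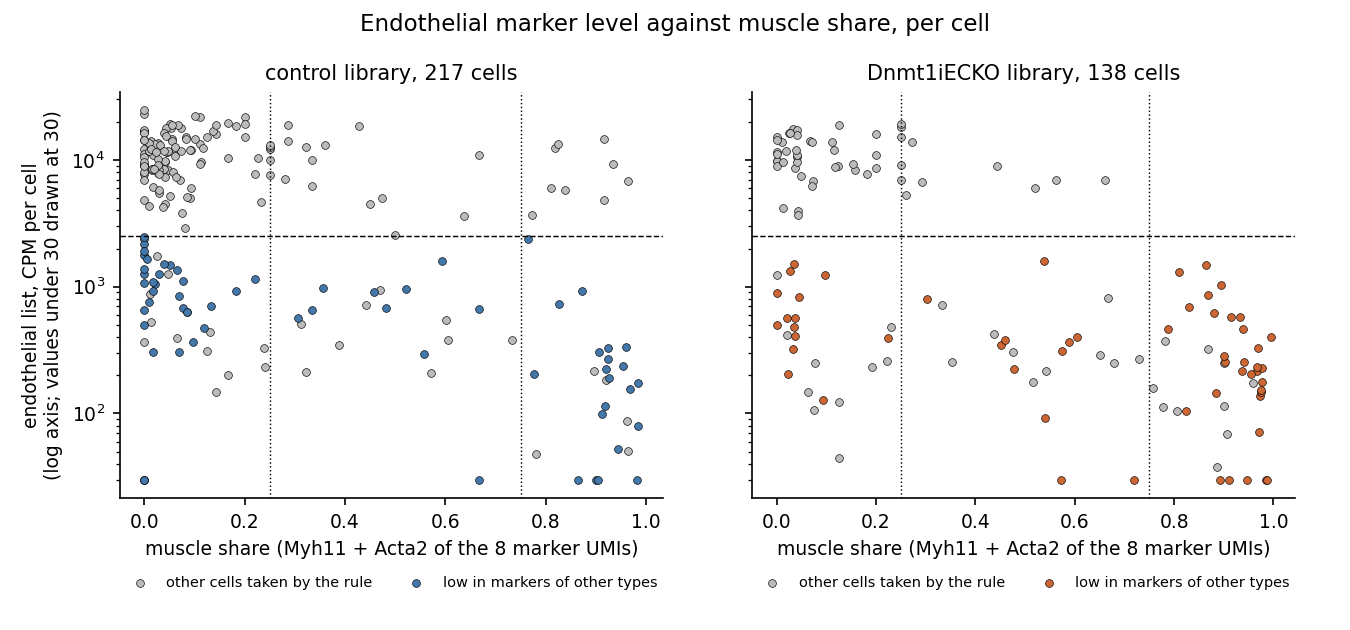
Each point is 1 mural-marker cell. The x axis is its muscle share and the y axis its summed endothelial list in CPM on a log axis, with the control library on the left and the Dnmt1iECKO library on the right. Colored points are the 61 control and 57 Dnmt1iECKO low-background cells, the dashed line is 2500 CPM and the dotted lines are the cuts at 0.25 and 0.75. Endothelial-rich cells lie above the dashed line and are mostly at low muscle share.

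The cells and the ends were chosen by the UMIs of the 8 markers, so the markers' levels, and with them the comparison of the ends, are a description. In the low-background muscle end, Acta2 held 9 to 638 UMIs per control cell (median 125) and 10 to 409 per Dnmt1iECKO cell (median 122), and Myh11 held 1 to 310 (median 43) and 1 to 167 (median 36.5). In the low-background pericyte end, Acta2 held 0 to 11 UMIs per control cell and 0 to 12 per Dnmt1iECKO cell, with a median of 0 in both. The 2 ends of each library overlapped only at the lowest Acta2 counts. Trpc6 ran the other way, at 2116 and 2363 CPM in the pericyte end, while in the muscle end no control cell held a UMI and the Dnmt1iECKO cells stood at 58.1 CPM. Cox4i2, a subunit of cytochrome c oxidase made in hypoxia-sensing cells, stood at 2195 and 2302 CPM in the pericyte end against 79.3 and 70.8 CPM in the muscle end. Postn, a matricellular protein, stood at 3023 and 2768 CPM against 355 and 301 CPM. Pdgfrb stood at 817 and 1249 CPM against 107 and 179 CPM, and Notch3 at 758 and 906 CPM against 403 and 225 CPM. Cspg4, the proteoglycan NG2, was the least separating marker, at 180 and 318 CPM in the pericyte end and 131 and 126 CPM in the muscle end.

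The marker genes lie apart in the genome. In GRCm38, Myh11 spans chr16:14194535-14291372, Acta2 chr19:34241090-34255590, Trpc6 chr9:8544142-8680741, Cox4i2 chr2:152754173-152765037 and Notch3 chr17:32120820-32166852. Values are 3′ counts summed per gene, so splice isoforms of Myh11 cannot be told apart in them.

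**Figure D2:**
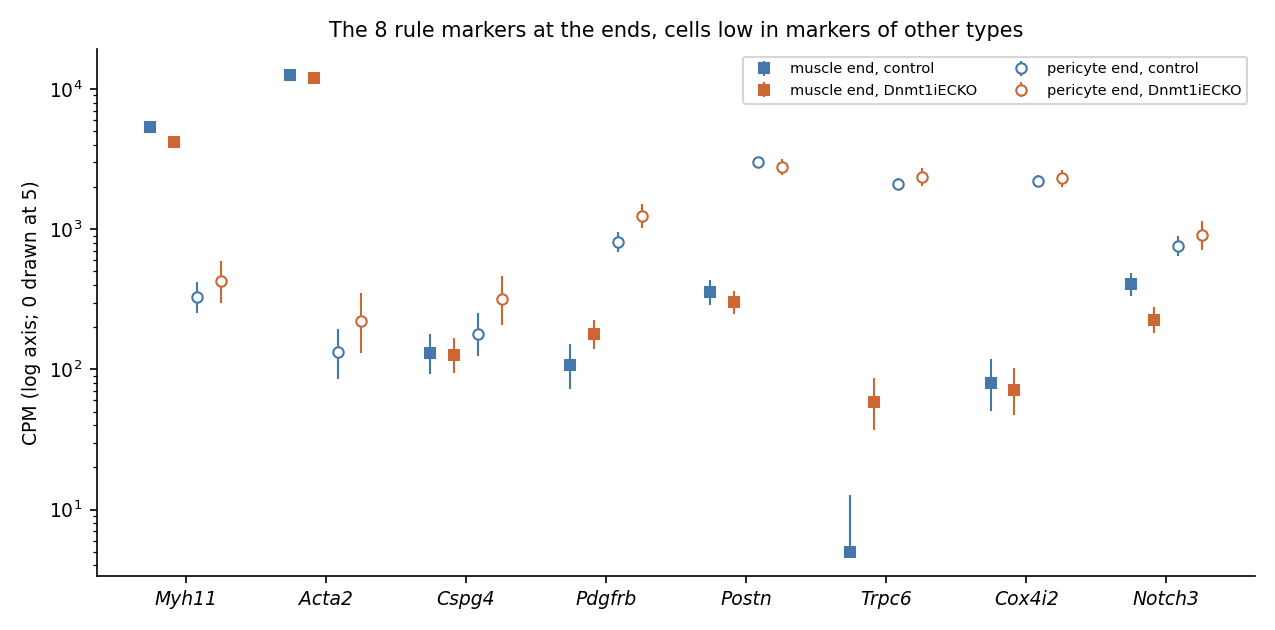
Points are CPM on a log axis of the 8 rule markers in low-background cells, squares for the muscle end (21 control, 32 Dnmt1iECKO cells) and open circles for the pericyte end (30 and 14 cells). Bars are 95% exact Poisson intervals, and the control muscle end's Trpc6 value of 0 is drawn at 5. Myh11 and Acta2 separate from the other 6 markers in both libraries.

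The contractile program marked the muscle end. Of 24 contractile-list genes with at least 20 UMIs, 21 were at least 2-fold higher at the muscle than at the pericyte end in both libraries and none was 2-fold lower, where 8.67% of the 6808 genes tested were that much higher and 10.6% that much lower. The list's median log2 ratio was 3.16 in the control and 3.0 in the Dnmt1iECKO library, against -0.12 and -0.013 over all genes. Tagln, an actin-binding protein of smooth muscle, stood at 10221 CPM at the muscle end and 196 CPM at the pericyte end of the control library, and at 9590 and 147 CPM in the Dnmt1iECKO library. Cnn1 (calponin) stood at 1086 and 847 CPM at the muscle end and at 0 at the pericyte end of both libraries. Lmod1, an actin nucleator, stood at 1010 and 1097 CPM against 47.7 and 61.2 CPM. Not every gene of contraction followed. Cald1 (caldesmon) differed by a log2 ratio of only 0.94 and 1.16, and Ppp1r14a, which codes for the myosin phosphatase inhibitor CPI-17, ran slightly the other way at -0.45 and -0.62.

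Rule markers aside, the 10 genes that most marked the low-background muscle end, by the smaller of both libraries' ratios, were Sod3, Pcdh7, Tagln, Mgp, Mustn1, Actc1, Map1b, Msrb1, Myom1 and Nexn. Sod3, the extracellular superoxide dismutase, stood at 783 CPM at the control and 784 CPM at the Dnmt1iECKO muscle end, against 5.30 and 12.2 CPM at the pericyte end. Actc1, the cardiac form of alpha actin, stood at 1686 and 1099 CPM at the muscle end and at 0 at the pericyte end. It was present in 16 of 21 control and 24 of 32 Dnmt1iECKO muscle-end cells. Actc1 also led all genes by the ratio of mural-marker cells to all other cells, at 103 against 0.485 CPM in the control and 116 against 1.03 CPM in the Dnmt1iECKO library. Other cells here means those past the same filters with no Ptprc UMI, and 4.61% of 9139 genes were 2-fold higher in both libraries in that comparison. Rule markers aside, next came Map3k7cl, Ctnna3, Lmod1, Cdh6, Stac, Kcnmb1, Actg2, Trarg1 and Adcy8. Lgr6, listed with airway muscle and myofibroblast genes, was present in 11 of 21 control and 20 of 32 Dnmt1iECKO muscle-end cells, so the muscle end is not shown by these markers to be vascular muscle alone. Of 13 heart and skeletal muscle markers, 12 were at 0 at the control muscle end and 9 at the Dnmt1iECKO muscle end, among them Myh6, Myl7 and Tnni3 in both. Tnnt2, the cardiac troponin T gene, was not, with 27 and 26 UMIs at the muscle ends (93.1 and 65.7 CPM) and none at the pericyte ends.

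The pericyte end had its own program. Of 18 pericyte-list genes with at least 20 UMIs, 11 were at least 2-fold higher at the pericyte end in both libraries and 2 at the muscle end. Over all genes 10.6% and 8.67% were, so the muscle-end count was near that share. The list medians were -2.85 and -2.22. The 2 muscle-end genes were Des (desmin), which the contractile list also holds, and Abcc9, a subunit of the ATP-sensitive potassium channel. Pdzd2, a scaffold protein, stood at 6035 and 6711 CPM at the pericyte end against 186 and 276 CPM. Vtn (vitronectin) stood at 233 and 331 CPM at the pericyte end, and at 0 in the control and 65.7 CPM in the Dnmt1iECKO muscle end. Kcnj8, the pore partner of Abcc9, stood at 79.5 and 24.5 CPM at the pericyte end against 10.3 and 20.2 CPM, and the Dnmt1iECKO pericyte value rests on 2 UMIs.

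Rule markers aside, the 10 leading genes of the low-background pericyte end were Spp1, Adcy8, Adgrg6, Kcnq5, Hsd11b1, Tafa1, Sgip1, Gap43, Rgcc and St8sia4. Kcnq5, a voltage-gated potassium channel, stood at 6438 and 6894 CPM against 27.6 and 73.3 CPM at the muscle end. Adcy8, a calcium-stimulated adenylate cyclase, stood at 1453 and 1592 CPM and was at 0 at the muscle end of both libraries. Spp1 (osteopontin) stood at 2970 and 1984 CPM against 6.90 and 10.1 CPM. It was present in 19 of 30 control and 7 of 14 Dnmt1iECKO pericyte-end cells.

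Relaxation genes split by step. Both subunits of soluble guanylate cyclase, the receptor of nitric oxide, were pericyte-end genes. Gucy1a1 stood at 5722 and 5511 CPM against 690 and 708 CPM, and Gucy1b1 at 2683 and 3086 CPM against 466 and 372 CPM. The cGMP phosphodiesterase Pde5a stood at 4545 and 4910 CPM against 255 and 369 CPM, and the cGMP-dependent kinase Prkg1 at 5515 and 6037 CPM against 1745 and 1693 CPM. Others ran toward the muscle end. Pde4d, a cAMP phosphodiesterase, stood at 203 and 316 CPM at the muscle end and at 0 at the pericyte end. Mrvi1, the kinase substrate that holds back calcium release, stood at 366 and 276 CPM at the muscle end and at 15.9 and 0 CPM at the pericyte end. Of 11 list genes with the minimum, 6 were 2-fold higher at the pericyte end and 4 at the muscle end in both libraries. Among all genes 10.6% and 8.67% were.

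Channels and calcium genes were divided between the ends, with 5 of 13 higher at the muscle end and 3 at the pericyte end. The shares over all genes were 8.67% and 10.6%. Trpc6, a rule marker, is among the 3, and its place was set by how the ends were cut. Kcnma1, the large-conductance potassium channel, stood at 159 and 207 CPM at the muscle end and at 0 at the pericyte end, and its partner Kcnmb1 at 75.9 and 111 CPM against 26.5 and 36.7 CPM. Ryr2, the ryanodine receptor, stood at 290 and 240 CPM against 79.5 and 110 CPM. Cacna1c, the pore of the L-type calcium channel, was shared, at 1531 and 1562 CPM at the muscle end and 1315 and 1825 CPM at the pericyte end.

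Receptors for vasoactive signals also differed between the ends, with 4 of 10 higher at the pericyte end and 3 at the muscle end. Over all genes these shares were 10.6% and 8.67%. Agtr1a, the angiotensin II receptor, stood at 233 and 306 CPM at the pericyte end against 3.45 and 0 CPM. F2r, the thrombin receptor, stood at 552 and 588 CPM against 69.0 and 27.8 CPM, and S1pr3, a sphingosine-1-phosphate receptor, at 255 and 331 CPM against 24.1 and 17.7 CPM. The endothelin receptors parted. Ednra stood at 785 and 796 CPM at the pericyte end against 214 and 258 CPM, whereas Ednrb stood at 5.30 and 0 CPM there against 221 and 281 CPM at the muscle end. Ramp1, a partner of the CGRP receptor, stood at 252 and 250 CPM at the muscle end and at 0 at the pericyte end.

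Transcription factors followed the same split. Of 20 with the minimum, 10 were 2-fold higher at the pericyte end and 5 at the muscle end in both libraries, against 10.6% and 8.67% of all genes. Myocd (myocardin) stood at 341 and 523 CPM at the muscle end and 0 and 24.5 CPM at the pericyte end, and Gata6 at 200 and 258 CPM against 0 and 12.2 CPM. The T-box genes Tbx2 (652 and 625 CPM), Tbx4 (451 and 527 CPM) and Tbx5 (424 and 722 CPM) were pericyte-end genes, at 34.5 to 116 CPM at the muscle end. Tbx4 and Tbx5 are known from lung mesenchyme, and the site of the tumors is given in conflicting ways. Ebf1 and Zeb2 were present at both ends but higher at the pericyte end, at 1649 and 2449 CPM and at 2063 and 2486 CPM. Of 4 PDGF-axis genes, Pdgfd was the muscle-end gene, at 290 and 260 CPM against 10.6 and 49.0 CPM. Those 4 include the rule marker Pdgfrb, whose place was set by how the ends were cut.

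The matrix divided by kind. Of 16 basement-membrane genes, 8 were higher at the pericyte end and 3 at the muscle end, where 10.6% and 8.67% of all genes were. Col4a1, a chain of type IV collagen, stood at 1347 and 1359 CPM at the pericyte end against 331 and 316 CPM. Of 26 fibrillar-matrix genes, 9 were higher at the muscle end and 2 at the pericyte end. Over all genes 8.67% and 10.6% were, so the pericyte-end count was near that share. Eln (elastin) stood at 2176 and 1433 CPM at the muscle end against 31.8 and 110 CPM, and Mgp, an inhibitor of calcification, at 2724 and 5068 CPM against 53.0 and 36.7 CPM. Angpt1, the mural ligand of endothelial Tie2, stood at 1209 and 1261 CPM at the pericyte end against 190 and 377 CPM, among 18 endothelial-crosstalk genes of which 4 were higher at the pericyte and 2 at the muscle end, where 10.6% and 8.67% of all genes were.

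Interferon genes were higher at the pericyte end. Of 27 genes of the IFNγ response list, 18 were at least 2-fold higher there in both libraries and none at the muscle end. Among all genes 10.6% and 8.67% were. The list medians were -2.21 in the control and -1.38 in the Dnmt1iECKO library. Iigp1, an interferon-inducible GTPase, stood at 695 and 955 CPM against 121 CPM in both muscle ends, and Gbp6 at 270 and 355 CPM against 10.3 and 20.2 CPM. Irf1 did not follow, at log2 ratios of 0.11 and 0.30. Of 11 genes of the type I list, 4 were higher at the pericyte end and none at the muscle end, beside the same 10.6% and 8.67% of all genes. The endothelial list moved with these genes, since its median muscle over pericyte ratio was -1.79 in the control and -0.28 in the Dnmt1iECKO low-background cells, and its part in the result was not tested. Of 21 immediate early and dissociation genes, 3 were higher at the muscle end and none at the pericyte end, where 8.67% and 10.6% of all genes were.

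**Figure D3:**
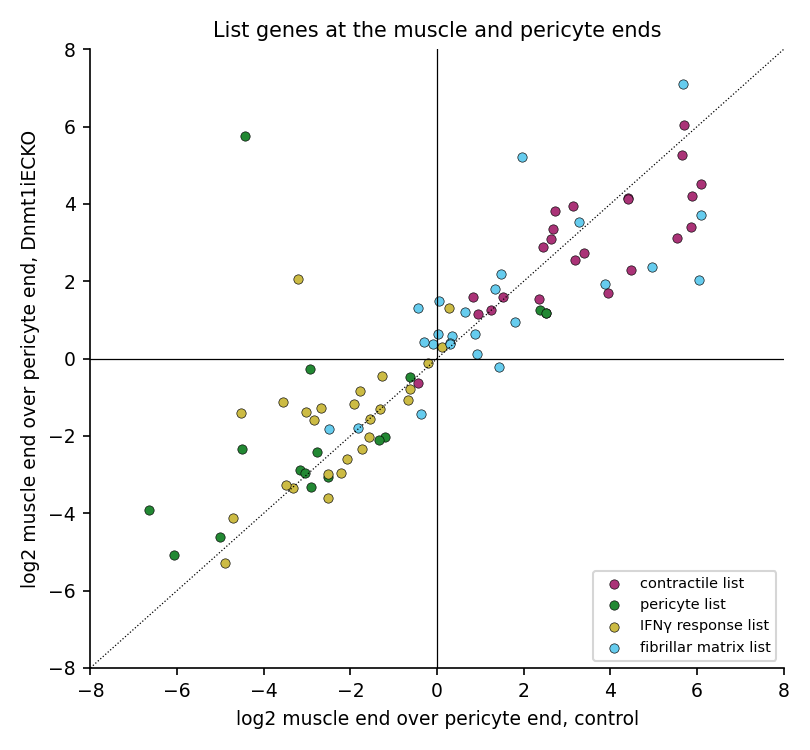
Each point is 1 gene of the contractile, pericyte, IFNγ response or fibrillar matrix list, placed by its log2 muscle over pericyte ratio in the control (x axis) and the Dnmt1iECKO library (y axis), in low-background cells. A gene at 0 in one end is drawn at its bound against 3 UMIs, and one with no bound is not drawn. Contractile genes lie at the upper right and most pericyte and IFNγ genes at the lower left, while Rgs5 lies at the upper left.

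Subunit pairs of the respiratory chain are given as shares. Cox4i2 and Myh11 set the muscle share, so their pairs had to differ between the ends and are a description. For each pair the share of UMIs from the pericyte form was taken within the same cells. Cox4i2 made up 89.4% of Cox4i1 and Cox4i2 UMIs at the control pericyte end (interval 86.3 to 92.1%) and 90.8% at the Dnmt1iECKO pericyte end (86.0 to 94.4%). At the muscle end it made up 12.0% (7.75 to 17.4%) and 9.76% (6.58 to 13.8%). Ndufa4l2, the paralog of the complex subunit Ndufa4, made up 95.3% of its pair at the control pericyte end and 73 of 73 UMIs at the Dnmt1iECKO pericyte end, against 29.2% and 24.0% at the muscle end. Higd1b made up 89.1% of Higd1a and Higd1b UMIs at the control pericyte end (82.9 to 93.6%) against 9.09% (1.12 to 29.2%) and 22.2% (13.3 to 33.6%) at the muscle ends. For Ndufa4l2 and Higd1b, which the rule did not use, the ends also lay far apart, while the libraries' values at the same end had intervals that met. Smooth muscle myosin (Myh11) likewise made up 96.1% and 94.7% of Myh11 and Myh9 UMIs at the muscle end, and 39.7% of them at the control pericyte end.

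Dnmt1 was first read in every group, as the targeted gene (GRCm38 chr9:20907209-20959888). In mural-marker cells it stood at 42.0 CPM (221 UMIs) in control cells against 43.0 CPM (164 UMIs) in the Dnmt1iECKO library, a log2 ratio of 0.03 (interval -0.27 to 0.33). The ratio was -0.54 without cells holding a Pdgfra UMI, -0.39 without those holding 3 tumor-cell genes and -0.44 at a minimum of 5 markers. Fibroblast-marked cells stood at 47.9 and 61.1 CPM and cells with tumor genes at 48.1 and 71.9 CPM. In low-background cells it stood at 33.6 CPM (22 UMIs) and 29.7 CPM (17 UMIs), a ratio of -0.18 (-1.18 to 0.80), which leaves a fall of more than 2-fold inside the interval. The endothelial-rich mural-marker cells stood at 43.2 and 22.5 CPM, a ratio of -0.94 (-1.57 to -0.36). All endothelial-rich cells outside the rule stood at 50.7 and 27.2 CPM, at -0.90 (-1.02 to -0.78). The lower level of the targeted gene was thus measured in the cells with endothelial genes, and in low-background mural cells the depth could not show one. The cells left out for their fibroblast genes stood at 41.3 and 12.2 CPM.

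Mural-marker cells made up 3.31% of the 6555 control cells past the filters with no Ptprc UMI (interval 2.89 to 3.77%) and 4.09% of the 3373 such Dnmt1iECKO cells (3.45 to 4.82%), a log2 ratio of 0.31 (-0.013 to 0.62). After each cell was thinned to 2000 UMIs before the rule, the shares were 1.65% and 1.95%. Low-background cells made up 0.931% and 1.69%, a log2 ratio of 0.86 (0.31 to 1.41). The sort acts on the cells counted below and above these lines, so the shares describe the sorted suspensions and not the tumors.

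The balance of the ends also differed. The muscle end held 35 of 217 control cells (16.1%, interval 11.5 to 21.7%) and 42 of 138 Dnmt1iECKO cells (30.4%, 22.9 to 38.8%), a log2 ratio of 0.92 (0.23 to 1.61). The pericyte end held 150 (69.1%) and 68 (49.3%), at -0.49 (-0.92 to -0.066). In low-background cells the muscle end held 21 of 61 (34.4%) and 32 of 57 (56.1%), at 0.71 (-0.13 to 1.57), and the pericyte end 30 (49.2%) and 14 (24.6%), at -1.0 (-2.03 to -0.042). Endothelial-rich cells moved with this shift, at 58.1% of control and 37.0% of Dnmt1iECKO mural-marker cells. All 15 endothelial-list genes were lower in the Dnmt1iECKO mural-marker cells, at a median log2 ratio of -0.69, where 5305 of 9139 genes were lower. The part of endothelial genes in the pooled values was not tested.

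Pooled over all mural-marker cells, pericyte genes were lower in the Dnmt1iECKO library. Of 9139 genes with at least 100 UMIs, 1.82% were at least 2-fold higher and 0.941% at least 2-fold lower (2.76% either way), and the median log2 ratio was -0.059. The ratio was above 0 for 3834 of these genes and below 0 for 5305. All 19 pericyte-list genes with the minimum had a ratio below 0, at a median of -0.61, and 2 of them, Rgs5 and Ebf2, were 2-fold lower, with 33.8% and 54.6% of their control UMIs in 1 cell. Postn stood at 652 CPM in control cells against 336 CPM in the Dnmt1iECKO library, Trpc6 at 366 and 231 CPM, Cox4i2 at 458 and 262 CPM and Notch3 at 212 and 150 CPM. Muscle genes were higher. Of 24 contractile genes, 18 had a ratio above 0, at a median of 0.25. Acta2 stood at 1252 and 1723 CPM and Myh11 at 497 and 560 CPM. These rule markers, like Postn, Trpc6, Cox4i2 and Notch3 above, chose the cells, so their values are a description.

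Within the pericyte end of all mural-marker cells pericyte genes were still lower. The list median was -0.57 there and -0.14 within the muscle end. Postn stood at 769 and 440 CPM at that pericyte end, Cox4i2 at 637 and 413 CPM, Trpc6 at 476 and 361 CPM and Notch3 at 223 and 168 CPM. Being rule markers, these chose both the cells and the ends, so their values are a description. The contractile median was 0.040 within the muscle end and -0.11 within the pericyte end. Within the ends of the low-background cells the list medians had the opposite sign to the pooled ones. At the muscle end the contractile median was -0.17 and the pericyte median 0.21, against 0.054 over all 5369 genes with at least 20 UMIs, of which 7.13% were 2-fold higher and 3.8% 2-fold lower. At the pericyte end they were -0.30 and 0.11, against -0.022 over 2809 genes, of which 5.66% were 2-fold higher and 9.33% 2-fold lower. The rule markers Trpc6, Cox4i2 and Postn had log2 ratios of 0.16, 0.07 and -0.13 at the pericyte end, and the rule marker Acta2 had -0.07 at the muscle end. The pooled low-background cells still showed the pericyte median at -0.65 and the contractile median at 0.29. The part of cell shares, and of other cells' markers, in the pooled differences was not tested. Receptor, cGMP, PDGF and transcription factor lists were below 0 in all mural-marker cells (-0.51, -0.47, -0.27 and -0.41) and above 0 at the low-background pericyte end (0.38, 0.16, 0.45 and 0.16), as the plot of list medians shows.

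**Figure D4:**
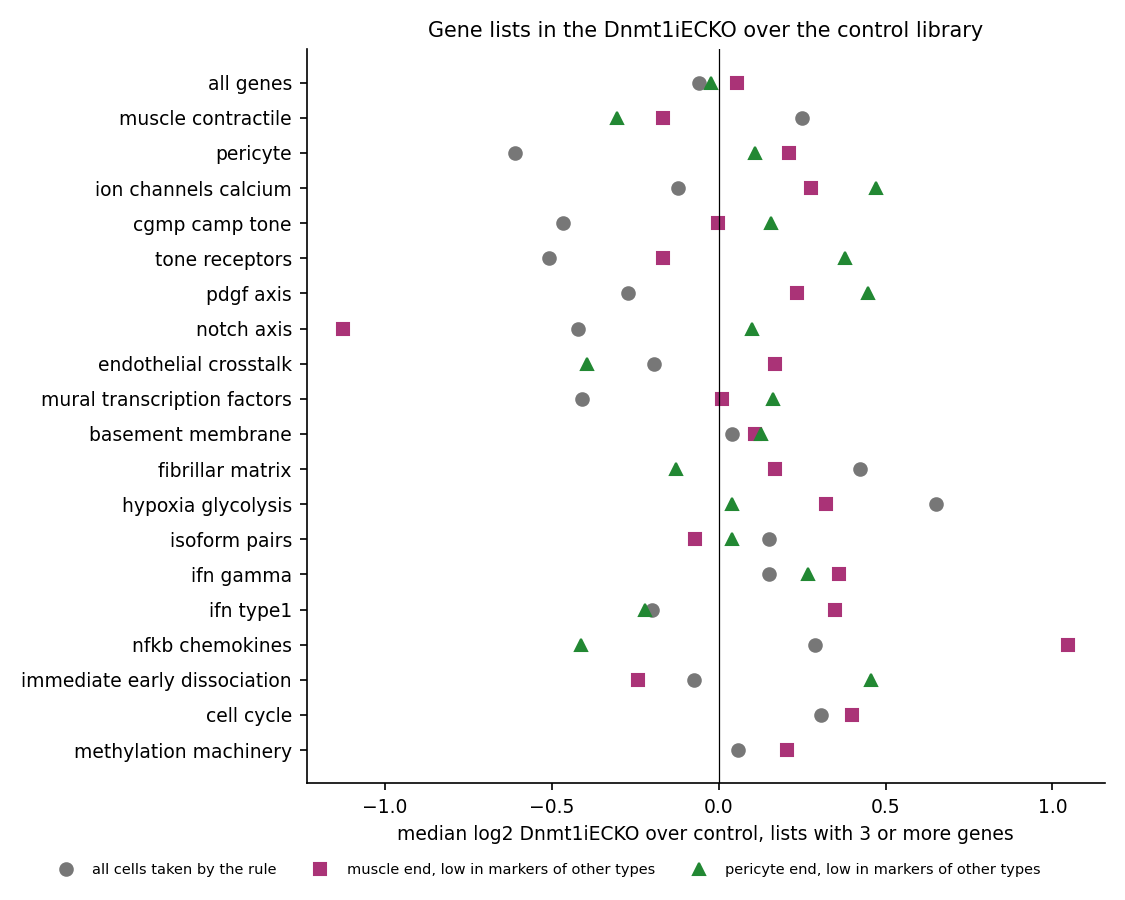
Points are the median log2 Dnmt1iECKO over control ratio of each gene list (y axis), for all mural-marker cells (gray circles), the low-background muscle end (squares) and the low-background pericyte end (triangles). Lists with fewer than 3 genes above the UMI minimum are not drawn. The pericyte list is at -0.61 in all cells and at 0.21 and 0.11 within the ends, and the Notch list is lowest at the muscle end, at -1.13.

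The Notch list stood lower at the muscle end. All 7 Notch genes with at least 20 UMIs had a ratio below 0 there, at a median of -1.13, and 4 were at least 2-fold lower, where 3.8% of all 5369 genes were that much lower and 2459 had a ratio below 0. Hes1, a Notch target, held 41 UMIs in 10 of 21 control cells and 22 UMIs in 10 of 32 Dnmt1iECKO cells, at 141 and 55.6 CPM and a log2 ratio of -1.35 (-2.16 to -0.57). Hey2, another target, stood at 82.8 and 35.4 CPM, at -1.23 (-2.29 to -0.22). Notch3 itself stood at 403 and 225 CPM, at -0.84 (-1.26 to -0.43), and was present in 19 of 21 control and 20 of 32 Dnmt1iECKO cells. As a rule marker it helped choose the cells and the ends, so its place among the 7 and in the median is a description. Nrarp, a feedback inhibitor, held 16 and 5 UMIs, and 62.5% of the control UMIs lay in 1 cell. Jag1, a ligand, had an interval that held 0 (-2.43 to 0.10), and Heyl was near even at -0.13 (-0.76 to 0.50). Notch1, with fewer UMIs than the minimum, had a ratio of 0.81. At the pericyte end the list median was 0.10, with Notch3 at 0.26 (-0.17 to 0.67), Hes1 at 0.77 (-0.22 to 1.74) and Heyl at 0.75 (-0.02 to 1.51).

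Chemokine genes were higher at the Dnmt1iECKO muscle end, but in few cells. Of 14 genes of the NFκB and chemokine list with the minimum, 8 were at least 2-fold higher, at a median of 1.05, where 7.13% of all 5369 genes were that much higher. The monocyte chemokine Ccl2 held 10 UMIs in 1 of 21 control cells and 75 UMIs in 5 of 32 Dnmt1iECKO cells. The eosinophil chemokine Ccl11 was at 0 in the control, and held 73 UMIs in 3 Dnmt1iECKO cells, a log2 ratio of at least 4.16 against a floor of 3 UMIs per library. Il6 held 1 and 114 UMIs, the latter in 3 cells. Vcam1, the adhesion molecule, held 10 and 89 UMIs, of which 91.0% of the Dnmt1iECKO count lay in 1 cell. Cxcl1, a neutrophil chemokine, was also present in the control, with 75 UMIs in 4 cells against 217 in 7 cells. Nfkbia, the inhibitor of NFκB, ran the other way at -0.80 (-1.08 to -0.52). Markers of immune cells moved with these genes. At the control muscle end 14 of 17 immune markers were at 0 and the list summed to 27.6 CPM, while at the Dnmt1iECKO muscle end 4 of 17 were at 0 and it summed to 68.2 CPM. The fibroblast list summed to 1893 and 2244 CPM there. The part of either in the result was not tested. At the pericyte end 4 genes of the list had the minimum and their median was -0.41, and Ccl2 held 0 and 14 UMIs.

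**Figure D5:**
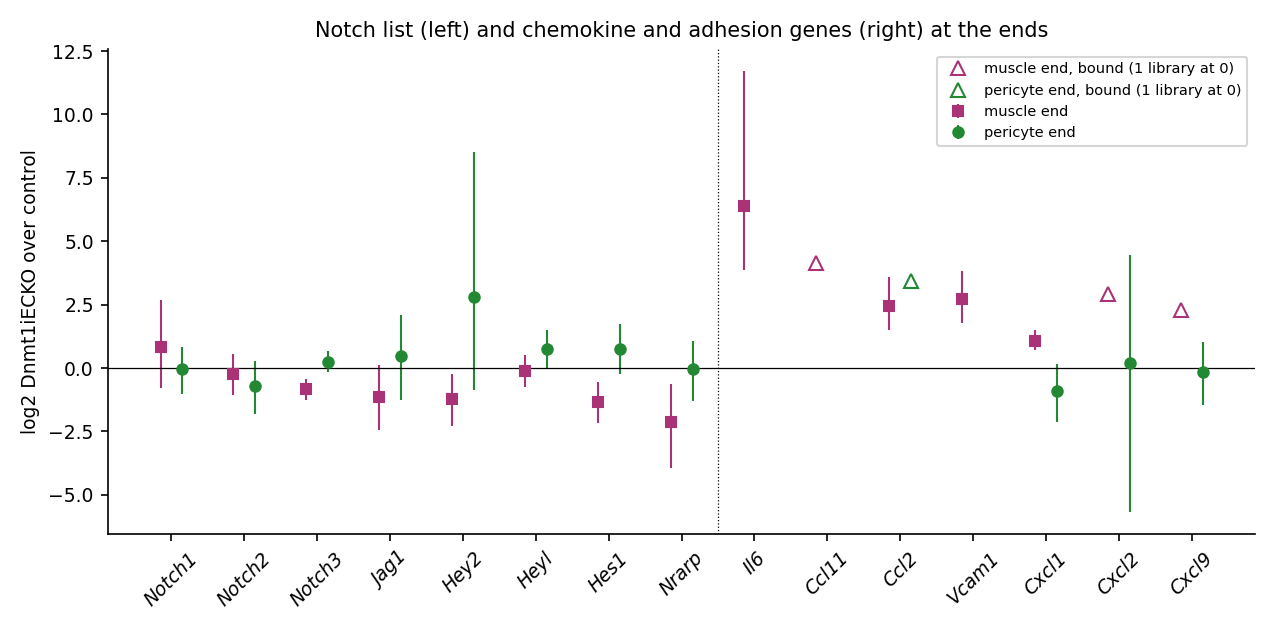
Points are log2 Dnmt1iECKO over control ratios of 8 Notch genes (left) and 7 chemokine, cytokine and adhesion genes (right) in low-background cells, squares for the muscle end and circles for the pericyte end. Bars are 95% exact intervals for counting error, and open triangles are bounds where 1 library was at 0. At the muscle end Notch3, Hey2, Hes1 and Nrarp lie below 0 with their intervals, and Il6, Ccl2, Vcam1 and Cxcl1 above it. Notch3 is a rule marker that helped choose the cells and the ends.

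Interferon genes depended on the cells compared. In pooled low-background cells 24 of 29 IFNγ genes had a ratio below 0, at a median of -0.68, as did 3859 of all 7667 genes. Of the 29, 3 were 2-fold higher and 9 lower, against 5.27% and 5.4% of all genes. Within the muscle end the median was 0.36, and 15 of 16 genes had a ratio above 0, against 2910 of all 5369. Within the pericyte end it was 0.27, and 12 of 21 were above 0, near the 1351 of 2809 over all genes. In all mural-marker cells 21 of 32 were above 0, at a median of 0.15, against 3834 of 9139 genes. At the low-background pericyte end other markers moved too, since the endothelial list summed to 1114 and 612 CPM and the platelet and red cell list to 366 and 0 CPM, and their part was not tested. B2m, the light chain of MHC class I, had a ratio of 0.28 (0.08 to 0.48) at the muscle end and 0.70 (0.45 to 0.94) at the pericyte end. H2-K1 had ratios of 0.51 (0.11 to 0.92) and 0.51 (0.09 to 0.93). Irf1 had 0.80 (0.45 to 1.16) at the muscle end. The GTPase genes Gbp4 and Gbp7 were lower at the pericyte end, at -1.65 (-2.93 to -0.58) and -1.29 (-2.22 to -0.46), where 48.3% of the control Gbp4 UMIs lay in 1 cell.

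Other genes differed within an end. At the muscle end Fbln5, an elastic fiber protein, stood at 51.7 and 283 CPM (15 UMIs in 5 cells, 112 in 13) and Mgp at 2724 and 5068 CPM, while Eln stood at 2176 and 1433 CPM. Fn1 (fibronectin) stood at 348 and 149 CPM. Tgfb2 stood at 428 and 144 CPM, at -1.57 (-2.05 to -1.11), and was present in 18 of 21 and 19 of 32 cells. Epas1, which codes for HIF-2α, stood at 469 and 220 CPM. Myocd was higher, at 0.62 (0.26 to 0.98). At the pericyte end Fbn1 (fibrillin) had a ratio of 1.21 (0.59 to 1.82). The heat-shock gene Hspa1b stood at 462 and 48.0 CPM at the muscle end, with 68.7% of the control UMIs in 1 cell.

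The 10 highest and 10 lowest ratios in mural-marker cells, among the 3299 genes whose ratio had the same sign at both ends and between them are a description of the extremes. Gdpd3, a lysophospholipase D gene (chr7:126766334-126775649), was high in the most cells. It held 15 UMIs in 10 of 217 control cells and 401 UMIs in 78 of 138 Dnmt1iECKO cells, at 2.85 and 105 CPM, a log2 ratio of 5.21 (4.47 to 6.06). In low-background cells it was at 0 in all 61 control cells and held 87 UMIs in 24 of 57 Dnmt1iECKO cells. At the pericyte end 11 of 14 Dnmt1iECKO cells held it, at 563 CPM, and none of 30 control cells did. At the muscle end it held 11 UMIs in 6 of 32 Dnmt1iECKO cells, at 27.8 CPM, and none in the control. Most of the 401 UMIs, 294, lay in 49 of the 51 endothelial-rich Dnmt1iECKO mural-marker cells. Gdpd3 stood higher in other endothelial-rich cells too, at 6.54 and 155 CPM.

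The other high genes rested on few cells. Il10 held 155 UMIs in the Dnmt1iECKO library with 87.1% of them in 1 cell, Kcnk10 115 UMIs with 79.1% in 1 cell, and Mmp3 353 UMIs with 65.4% in 1 cell. Lrfn5, Kcnk10, Il1rl1 and Mmp3 were at 0 in the low-background cells of both libraries. Gm15726, Hist1h2ap, Unc13c and Tnfaip6 completed the list. Tnfaip6 held 60 and 432 UMIs in fibroblast-marked cells, out of 121 and 466 in all.

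Fabp4, Hbb-bs and Cyp1a1 had the lowest ratios. Fabp4, a fatty acid carrier of capillary ECs, stood at 248 CPM in control cells against 4.98 CPM in the Dnmt1iECKO mural-marker cells, and at 336 and 0 CPM in the endothelial-rich ones. In low-background cells it stood at 153 and 33.2 CPM. It was present in 20 control cells, and 1271 of its 1303 control UMIs lay in 12 of the 17 control cells that held at least 5 Rgs5 UMIs. Other endothelial-rich cells stood at 120 and 89.4 CPM, and the cells left out for fibroblast genes at 16.7 and 255 CPM. Cyp1a1, a target of the aryl hydrocarbon receptor, stood at 83.4 and 9.70 CPM. It was at 0 in the low-background cells of both libraries, and in other endothelial-rich cells it stood at 238 and 40.7 CPM. Hbb-bs, a hemoglobin chain, held 134 UMIs in 12 control cells and none in the Dnmt1iECKO cells, and 59.0% of them lay in 1 cell. Other endothelial-rich cells went the other way for Hbb-bs, at 148 and 367 CPM, and so did the cells left out for fibroblast genes, at 16.7 and 1089 CPM. Ebf2, Ifi208, Slfn3, Slc35g2, Ntm and Gdf15 were also among the lowest, at -2.83 to -1.48, and 54.6% of the control Ebf2 UMIs lay in 1 cell.

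Rgs5, a widely used pericyte gene, changed sign with the cells compared. It stood at 276 and 75.0 CPM in mural-marker cells, a log2 ratio of -1.88 (-2.07 to -1.69), with 33.8% of the control and 36.0% of the Dnmt1iECKO UMIs in 1 cell. Of the 1451 control UMIs, 1408 lay in 17 cells, and of the 286 Dnmt1iECKO UMIs, 254 lay in 3 cells. In low-background cells Rgs5 stood at 241 and 468 CPM, at 0.96 (0.67 to 1.25). There 144 of 158 control UMIs lay in 4 cells and 254 of 268 Dnmt1iECKO UMIs in 3 cells. At the muscle end Rgs5 held 3 UMIs in the control and 262 in 9 of 32 Dnmt1iECKO cells, 254 of them in 3 cells. At the pericyte end it held 42 UMIs in 2 of 30 control cells and 1 UMI in the Dnmt1iECKO library. Trpc6, by contrast, was present in 29 of 30 control and 14 of 14 Dnmt1iECKO pericyte-end cells, and Higd1b in 27 of 30 and 11 of 14. Rgs5 was thus not detected in most cells with the pericyte program.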

How the data were processed

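The authors deposited UMI counts per gene and cell, made with Cell Ranger 9.0.1 (mm10) from 10x 3′ libraries, 1 control and 1 Dnmt1iECKO, without normalization, and these deposited counts were used as given for 32285 genes. Cells were chosen by the rule at the start of the report. Members and gene lists were chosen with earlier results of these data known. Counts were summed over cells and divided by their UMIs (CPM). Genes with at least 100 UMIs (20 in low-background cells) were compared. A call was a 2-fold difference. Ratios have exact conditional Poisson intervals and shares Clopper-Pearson intervals. A gene at 0 was set to a floor of 3 UMIs per library. Doublets were scored with Scrublet (scanpy 1.11.5) and kept. Python 3.11.15, numpy 2.4.6, scipy 1.17.1, pandas 2.3.3 and matplotlib 3.10.9 were used. The ratio code was tested on simulated data. Genes named were the 8 markers, Dnmt1, up to 4 genes a list by UMIs plus those past 2-fold, the 10 highest over other cells, the 10 at each extreme of the library ratio among genes of 1 sign in all 3 ranges of muscle share, and the 10 at each extreme between the ends. Others, and the limits of the low-background set, were chosen after values were seen. Protein sequences were not used here. Some results are not reported here.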

Additional observations from a re-analysis of the deposited data

Results flagged for a closer look

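Of 148 list genes and markers with at least 20 UMIs at each low-background end, 8 had a Dnmt1iECKO over control log2 ratio whose counting interval lay above 0 at one end and below 0 at the other. The difference between the ends was not tested, since each group was 1 library. Of the immediate early and dissociation list, 6 genes were lower at the muscle end and higher at the pericyte end. Fos, a subunit of AP-1, stood at -0.20 at the muscle end and 0.47 at the pericyte end. Fosb stood at -0.32 and 0.75, and Egr1, a zinc finger factor, at -0.24 and 0.46. Atf3, a stress-induced factor, stood at -0.75 and 0.61, and Socs3, an inhibitor of cytokine signalling, at -0.80 and 1.03. Klf2, which codes for a factor induced by flow in ECs, also did, at -0.91 and 2.03. Btg2, an antiproliferative gene, ran the other way, at 0.26 and -1.45. Rgs5 had the widest gap, at 6.00 and -4.18. It rests mostly on 3 Dnmt1iECKO cells at the muscle end (254 of 262 UMIs) and on 2 control cells at the pericyte end.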

How the results depend on the processing

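Of 729 values recomputed under other settings, 81 of the main comparisons stayed close to the reported value, 34 moved and 2 were counted as reversed. Of the values of single genes and lists, 15 were counted as reversed. These counts do not hold every change of sign. The contractile median and the Dnmt1 ratio, both small in all mural-marker cells, also changed sign under several settings given below. So did the IFNγ and channel medians in low-background cells. The cause of each change was not tested. No paired analysis was possible because each group was 1 library, and for the same reason leaving out a replicate was not done.

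The log2 share of mural-marker cells (0.31) was 1.07 in cells with no Cdh5 or Pecam1 UMI and 0.86 in low-background cells. The percent of genes 2-fold higher (1.82) was 3.30 with no Cdh5 or Pecam1 UMI, 5.27 in low-background cells, 3.79 at a minimum of 20 UMIs, 2.91 by the mean of CPM over cells, 3.30 within the muscle end, and 7.13 and 5.66 within the low-background muscle and pericyte ends. The percent 2-fold lower (0.941) was 2.40 and 0.616 with at least 3 and at least 5 markers, 2.91 with no Cdh5 or Pecam1 UMI, 0.582 with no Pdgfra UMI, 5.4 in low-background cells, 3.06 at 20 UMIs, 1.44 by the mean over cells, 5.36 within the muscle end, and 3.80 and 9.33 within the low-background ends. The Dnmt1 ratio (0.03) was 0.45 and -0.44 with at least 3 and at least 5 markers, -0.54 with no Pdgfra UMI, -0.39 with under 3 tumor-cell genes and -0.35 at the low-background muscle end.

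The contractile median (0.25) was -0.22 with no Cdh5 or Pecam1 UMI, 0.63 by the mean over cells, -0.11 within the pericyte end, and -0.17 and -0.30 within the low-background muscle and pericyte ends. The pericyte median (-0.61) was -0.34 with no Pdgfra UMI, -0.14 within the muscle end, and 0.21 and 0.11 within the low-background ends. At the low-background pericyte end the sign also changed for the medians of the cGMP (0.16), receptor (0.38), PDGF (0.45), Notch (0.10), transcription factor (0.16), fibrillar matrix (-0.13) and NFκB (-0.41) lists, and at the muscle end for PDGF (0.23) and transcription factors (0.010). The NFκB median was -0.24 in low-background cells, and the cell cycle median -1.95 with no Cdh5 or Pecam1 UMI and -0.18 with no Pdgfra UMI. Rgs5 was 0.96 in low-background cells and 6.00 at their muscle end, and Hbb-bs 1.24 with at least 3 markers. Between the ends, the percent 2-fold higher at the muscle end (4.65) was 8.67 in low-background cells, and the percent lower (7.25) was 4.17 with no Cdh5 or Pecam1 UMI and 12.4 at cuts of 0.9 and 0.1. The low-background limits were chosen after seeing the data, and the 14 cells of the Dnmt1iECKO pericyte end limit what its depth can show.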
